A study of Homo sapiens with 4 samples.

Results

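The FOXK2 peaks of 10 hypoxia response genes were examined in OVCAR5 cells, which the study uses as an ovarian cancer line. The genes were HIF1A, EPAS1, ARNT, VHL, EGLN1, EGLN2, EGLN3, HIF1AN, VEGFA and ADM, and a peak was taken as theirs when the deposited annotation gave the gene as the one with the nearest transcription start site (TSS). By that rule 17 of 12471 peaks in replicate 1 and 26 of 27281 peaks in replicate 2 belonged to these genes. Chromatin from cross-linked cells was precipitated with an antibody to FOXK2 in 2 replicates of a single condition, and the labels name no treatment, knockdown or gene edit for these libraries. Neither the reads nor the 2 input libraries were analysed here. Peak lists hold no expression, so the labelled cell type was not checked against markers. The study calls them biological replicates, the labels only number them, and both come from the same line, so their spread is not that of tumors.

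Cells sense oxygen through the HIF transcription factors. In normoxia, prolyl hydroxylases of the EGLN family mark the alpha subunits, encoded by HIF1A and EPAS1, for the VHL ubiquitin ligase, and HIF1AN, an asparaginyl hydroxylase, blocks their recruitment of coactivators. In hypoxia the alpha subunits persist, pair with the beta subunit encoded by ARNT and bind hypoxia response elements of target genes such as VEGFA, the main angiogenic growth factor, and ADM, which encodes the vasodilator peptide adrenomedullin. FOXK2 is a forkhead factor whose known binding heptamer is TGTTTAC. The study linked FOXK2 to a stress response whose downstream readouts included HIF1A and VEGFA, and the question here was whether, where and how strongly FOXK2 peaks lay at the genes of this pathway.

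Of the 10 genes, 6 had a peak in both replicates: HIF1A, EPAS1, EGLN1, EGLN2, EGLN3 and VEGFA. Among all 20056 protein-coding genes of RefSeq, 28.6% had a peak in both lists, 31.3% in replicate 1 and 51.7% in replicate 2. A peak that overlapped between the replicates by 1 bp or more was found at the same 6 of 10 genes, against 25.5% of protein-coding genes. That is, 5111 of the 5736 protein-coding genes with a peak in both lists had an overlapping one. ARNT and HIF1AN had a peak only in replicate 2, the longer list, as did 23.1% of protein-coding genes. None had one only in replicate 1, as 2.70% did. VHL and ADM had no peak in either list, as was the case for 45.6% of protein-coding genes, and the other 8 had one in at least 1 list, against 54.4%. A promoter-TSS peak was found in both lists at HIF1A, EPAS1 and EGLN2, 3 of 10, against 9.30%, and in replicate 2 at 6 of 10, against 21.2%. With 10 genes chosen by hand, these counts describe the list and were not tested against the background.

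**Figure D1:**
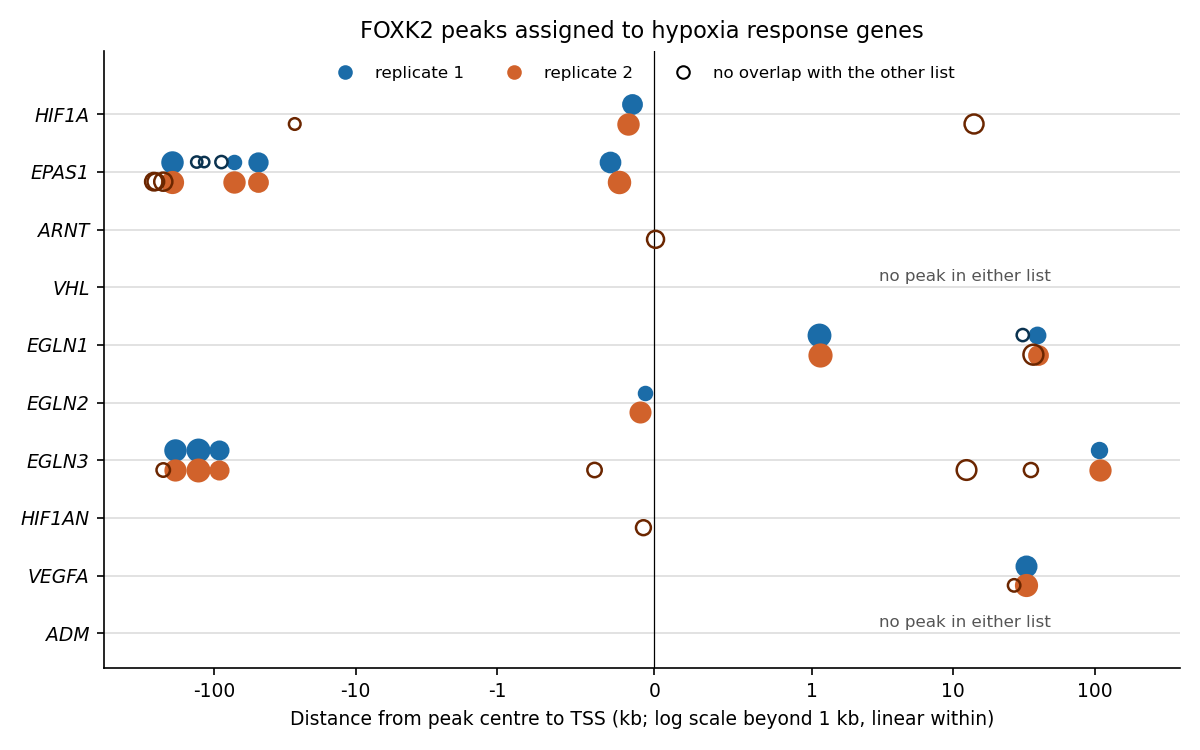
Each point is a FOXK2 peak placed by the distance of its centre from the TSS in kb (log scale beyond 1 kb), with 1 row per gene, replicate 1 in blue and replicate 2 in orange. Larger points have a higher score percentile, and open points have no overlapping peak in the other list. Peaks shared by the replicates lay at the promoters of HIF1A, EPAS1 and EGLN2, and 1133 and 1149 bp from the annotated TSS of EGLN1. Shared peaks far from the TSS lay at EGLN3, EPAS1, VEGFA and EGLN1, the last at 39490 and 39538 bp.

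The strength of a peak is given by the peak score of the authors' HOMER run, by its rank and percentile in its own list (100 is strongest), and by the number of tags, that is, aligned reads, which the score implies. A single tag was worth 0.189 score units in replicate 1 and 0.149 in replicate 2: 100% of the 10557 and 19445 scores below 10 were whole multiples of these values within the rounding of 0.01. Under HOMER's default scaling to 10000000 tags, these values correspond to libraries of about 53000000 and 67200000 tags. The weakest peaks then held 16 and 21 tags and the median peaks 31 and 49. Intervals on tags are 95% exact Poisson intervals and cover counting error only, since duplicate fragments are not independent molecules. Scores and tags were compared within a list and never between lists. Percentiles depend on list length too: over the 9343 overlapping pairs of the whole series, the percentile was higher in the longer list of replicate 2 by a median of 12.0, so a rise of that size between the lists is not read as a stronger peak.

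EGLN1, which encodes the main oxygen-sensing prolyl hydroxylase, had the strongest peak of the group by mean percentile over the replicates. This peak lay on chromosome 1 at chr1:231423806-231424016 in replicate 1 (hg38 throughout), with a score of 14.9, 79 tags (62.5 to 98.5) and rank 603, at the percentile of 95.2. In replicate 2 it lay at chr1:231423767-231424023, with a score of 33.3, 224 tags (196 to 255) and rank 418, at the percentile of 98.5. The peak was high in both lists, and its centre moved by only 16 bp between them. The deposited annotation placed it in the 5′ UTR, in exon 1, 1133 and 1149 bp downstream of the TSS. Against the canonical EGLN1 transcript of GENCODE release 44, whose TSS is at 231422287 on the minus strand, the same peak was at -1624 and -1608 bp. There it lay upstream of the gene and outside every exon, within ENSG00000287856, which GENCODE lists as protein-coding. Whether the peak is in the gene or before it thus depends on the annotation. It held 1 exact heptamer at its centre, shown here in capitals on the plus strand of hg38 from chr1:231423881-231423910, where it reads as the reverse complement of TGTTTAC:

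EGLN1: gaggcaggtatGTAAACAaggacaatccag

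Further EGLN1 peaks lay in intron 1. A peak at 39490 bp in replicate 1 (29 tags, percentile 44.2) overlapped the one at 39538 bp in replicate 2 (62 tags, percentile 66.7). Both fell in an L2c LINE element, held an AP-1 site (TGACTCA or TGAGTCA) and had no heptamer. Replicate 1 alone had an intron 1 peak at 31077 bp with 24 tags, and replicate 2 alone had one at 36959 bp with 83 tags (percentile 81.5). Chromosome 1 was not a chromosome of raised scores, with median percentiles over all its peaks of 40.9 in replicate 1 and 41.1 in replicate 2, and among chromosome 1 peaks the strongest EGLN1 peak stood at the percentiles of 97.1 and 99.1.

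EGLN3, a hypoxia-inducible member of the same hydroxylase family, had 4 peaks in replicate 1, and each of the 4 overlapped a peak among the 8 of replicate 2. At least as many peaks were assigned to 1.27% of protein-coding genes in replicate 1 and to 0.693% in replicate 2. The strongest was at -130985 bp from the TSS in both lists, at chr14:34081958-34082168 in replicate 1 (score 15.5, 82 tags, rank 541) and chr14:34081935-34082191 in replicate 2 (score 23.3, 157 tags, rank 1026). Its percentiles of 95.7 and 96.2 were nearly equal, and its centre was at the same base in both. The deposited annotation called it intergenic, whereas GENCODE release 44 draws EGLN3 to include long upstream transcripts and places the peak inside the gene, in no exon. The 201-bp window around the centre, chr14:34081963-34082163 on the plus strand, held 1 heptamer (capitals), and it held the AP-1 site TGACTCA as well:

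EGLN3, upstream: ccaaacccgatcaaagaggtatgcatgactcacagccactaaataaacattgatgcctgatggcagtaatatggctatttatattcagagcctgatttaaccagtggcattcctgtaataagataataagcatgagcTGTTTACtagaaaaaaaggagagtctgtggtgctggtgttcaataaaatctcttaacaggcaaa

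The other shared EGLN3 peaks were weaker. The peak at -188925 bp in replicate 1 and -188928 bp in replicate 2, in an L1PA7 LINE element, had 49 tags in replicate 1 (percentile 82.0) and 79 tags in replicate 2 (79.4). That at -92719 bp in replicate 1 had 35 tags and its partner at -92755 bp had 57, at the percentiles of 60.8 and 61.3. The peak beyond the 3′ end, at 108269 bp in replicate 1 and 108367 bp in replicate 2, had 28 and 80 tags and stood apart by percentile, 40.9 against 80.0. The promoter peak, at -381 bp, was found only in replicate 2 with 41 tags (percentile 37.6), and so was an intron 1 peak at 12440 bp with 78 tags (percentile 78.8). Each list also had a weak peak, at a different site, inside the longer GENCODE gene that was assigned to SPTSSA. These stood at the percentiles of 2.35 in replicate 1 and 23.4 in replicate 2. Exact heptamers lay in the peak at -188928 bp, in intron 1 and beyond the 3′ end. The 30-bp stretches cut around them are given to show the flanks, the core being the same by selection (chr14:34139996-34140025, chr14:33938363-33938392 and chr14:33842537-33842566, plus strand):

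EGLN3, far upstream: tccctcacagtGTAAACAaagcctccggga
EGLN3, intron 1: aattaggcacaGTAAACAggcccggcaaca
EGLN3, beyond the 3′ end: ggggtgggtgcTGTTTACatcctgggttca

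EGLN2, which encodes the family member best known as a constitutively expressed hydroxylase, had a single promoter peak in each list. It lay at chr19:40798977-40799187 in replicate 1, -61 bp from the TSS, with a score of 4.72, 25 tags (16.2 to 36.9) and the percentile of 29.0. In replicate 2 it lay at chr19:40798921-40799177, -94 bp from the TSS, with a score of 11.5, 77 tags (60.8 to 96.2) and the percentile of 78.2. The peak was below the list median in replicate 1 and well above it in replicate 2, so its percentile is poorly fixed. Ordered by strongest peak, EGLN2 came after HIF1A in both lists, a step that the tag counts do not resolve. The EGLN2 peak held no heptamer and no degenerate forkhead core. The locus also carries the read-through gene RAB4B-EGLN2, so the peak cannot be given to EGLN2 alone.

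HIF1A had 1 peak in replicate 1, at its promoter, chr14:61695155-61695365, -141 bp from the TSS, with a score of 7.17, 38 tags (26.9 to 52.2) and rank 4101. The partner in replicate 2 was at chr14:61695107-61695363, -166 bp from the TSS, with a score of 12.3, 83 tags (66.1 to 103) and rank 5048. This promoter peak was at the percentile of 67.1 in replicate 1 and 81.5 in replicate 2, a shift of 14.4, near that of all overlapping pairs. In GENCODE release 44 its centre lay within HIF1A-AS1, a long noncoding RNA gene that overlaps the promoter. Replicate 2 alone had an intron 1 peak at 14061 bp (69 tags, percentile 72.8), whose centre GENCODE places in an exon of an unnamed long noncoding RNA, and a weak intergenic peak at -26999 bp (33 tags, percentile 21.1). The intron 1 peak held a heptamer (chr14:61711682-61711711, plus strand), and the promoter peak held none within 100 bp of its centre but had the hexamer CACGTG, in capitals in its 201-bp window (chr14:61695135-61695335, plus strand):

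HIF1A, intron 1: gctggctctgaTGTTTACcttgtggctaat
HIF1A, promoter: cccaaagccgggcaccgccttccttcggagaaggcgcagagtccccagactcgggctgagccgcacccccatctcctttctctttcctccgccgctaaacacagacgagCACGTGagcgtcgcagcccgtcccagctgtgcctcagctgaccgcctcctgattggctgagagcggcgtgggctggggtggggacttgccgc

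The same hexamer, which contains the hypoxia response core ACGTG on both strands and is also known as an E-box of basic helix-loop-helix factors, lay in the EGLN2 promoter peak (chr19:40799130-40799159, plus strand):

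EGLN2, promoter: gcggggcgcggtCACGTGcccaccgggcga

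CACGTG was picked out after the sequences were seen, and outside promoters it also lay in the replicate 2 VEGFA peak at 27000 bp. It lay in 10.7% of promoter-TSS peaks of replicate 1 and 10.1% of those of replicate 2, and in 6.02% and 5.21% of all peaks, within 100 bp of the centre.

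EPAS1, which encodes the other oxygen-labile alpha subunit, had the most peaks in replicate 1, with 7, of which 4 overlapped peaks of replicate 2, which also had 7. At least 7 peaks were assigned to 0.110% of protein-coding genes in replicate 1 and to 1.13% in replicate 2. All peaks assigned to EPAS1 lay upstream of the TSS or at the promoter. A further replicate 2 peak, with 33 tags (percentile 21.1) and a heptamer, lay inside the gene in intron 11, chr2:46379167-46379423, but was assigned to LINC01820. The promoter peak, chr2:46297017-46297227 in replicate 1 and chr2:46297047-46297303 in replicate 2, had scores of 8.11 and 17.1, with 43 tags (31.1 to 57.9) and 115 tags (94.9 to 138), at the percentiles of 74.9 and 91.1. The peak at -199429 and -199423 bp, far upstream, was at similar percentiles, with 49 tags in replicate 1 (percentile 82.0) and 103 tags in replicate 2 (88.6), so that it was the strongest EPAS1 peak in replicate 1 and the promoter peak was the strongest in replicate 2. The distal peak lay in intron 11 of PRKCE, which encodes a protein kinase C, and was given to EPAS1 only because the EPAS1 TSS is the nearest. The shared peaks at -49005 and -48996 bp (36 and 62 tags) and at -72202 and -72167 bp (25 and 82 tags) were intergenic, in an L1ME3F and an MLT1F repeat. The heptamer was found in the first of these (chr2:46248353-46248382, plus strand) and, in replicate 2 alone, in peaks at -267641 and -258990 bp in intron 10 of PRKCE, while the promoter window (chr2:46297075-46297275, plus strand) held only a degenerate forkhead core, in capitals:

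EPAS1, upstream: ctttggctattGTAAACAgctctgctatga
EPAS1, promoter: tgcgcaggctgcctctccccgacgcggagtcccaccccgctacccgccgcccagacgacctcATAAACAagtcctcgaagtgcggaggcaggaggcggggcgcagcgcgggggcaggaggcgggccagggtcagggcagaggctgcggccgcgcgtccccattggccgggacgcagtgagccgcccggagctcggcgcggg

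EPAS1 and EGLN3, the genes with the most peaks, lie in wide spaces between genes. The TSSs of the protein-coding genes that flank EPAS1, PRKCE and TMEM247, are 828 kb apart, and those that flank EGLN3, NPAS3 and SPTSSA, are 1523 kb apart, against a median of 126 kb over 19394 protein-coding genes. Spans at least as large occur at 7.85% and 3.37% of these genes. HIF1A and VEGFA, with spans of 441 and 440 kb, each reached by 16.8% of genes, had 1 peak each in replicate 1 and 3 and 2 in replicate 2. The part of this span in the peak counts was not tested. Chromosomes 2 and 14, which hold EPAS1, EGLN3 and HIF1A, also had somewhat raised scores, with median percentiles of 58.6 for each in replicate 1 and of 61.3 and 62.5 in replicate 2. Ranked among chromosome 14 peaks alone, the strongest EGLN3 peak stood at the percentiles of 93.9 and 93.7.

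ARNT, the beta subunit shared by the HIF alpha subunits, had a single peak, in replicate 2 only. It lay at its promoter, chr1:150876633-150876889, 7 bp from the TSS, with a score of 7.88, 53 tags (39.7 to 69.3) and the percentile of 56.5. In replicate 1 the nearest peak to the canonical ARNT TSS was at -103321 bp and was assigned to ANXA9. Of the 500 replicate 2 peaks nearest in rank, 30.4% had a partner in replicate 1, so the lack of a partner is common at this score. A further replicate 2 peak lay in an exon of ARNT near its 3′ end (37 tags), but was assigned to CTSK.

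HIF1AN likewise had only a replicate 2 peak, at its promoter, chr10:100535686-100535942, -70 bp from the TSS. Its score was 6.39, with 43 tags (31.1 to 57.9), the percentile of 41.1 and a focus ratio of 0.592 against a list median of 0.755 (the focus ratio is the fraction of tags on the expected side of the peak centre). Among the 500 peaks nearest in rank, 21.2% had a replicate 1 partner. It was the weakest best peak of the group in that list.

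VHL, the ubiquitin ligase that ends the life of hydroxylated alpha subunits, had no peak. The nearest peak to its TSS was 27490 bp away in replicate 1 (28 tags) and 27524 bp away in replicate 2 (41 tags), in intron 1 of IRAK2, and was assigned to that gene. The flanking protein-coding TSSs, of BRK1 and IRAK2, are 49.2 kb apart, a span equalled or exceeded by 78.5% of protein-coding genes. The part of this span in the lack of a peak was not tested. A peak that was not called may still carry signal below the threshold, which the lists do not show.

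Of the secreted targets, VEGFA had no promoter peak. Its shared peak lay past the gene, 18328 and 18291 bp beyond the end of the canonical transcript, at chr6:43804710-43804920 in replicate 1 and chr6:43804650-43804906 in replicate 2. It scored 8.49, with 45 tags (32.8 to 60.2) and the percentile of 77.5, in replicate 1, and 15.3, with 103 tags (84.1 to 125) and the percentile of 88.6, in replicate 2. It was in the upper part of both lists, and among chromosome 6 peaks alone it stood higher, at 87.2 and 94.1. The deposited annotation called it intergenic, and GENCODE release 44 has an unnamed long noncoding RNA gene there. Replicate 2 had a further peak at 27000 bp from the TSS with 35 tags (percentile 25.6), which held the hexamer CACGTG and no heptamer. The 201-bp window of the shared peak in replicate 2 (chr6:43804678-43804878, plus strand) held 2 heptamers in the same direction, 120 bp apart from start to start, while the replicate 1 window, whose centre lay 37 bp away, took in 1 of them:

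VEGFA, downstream: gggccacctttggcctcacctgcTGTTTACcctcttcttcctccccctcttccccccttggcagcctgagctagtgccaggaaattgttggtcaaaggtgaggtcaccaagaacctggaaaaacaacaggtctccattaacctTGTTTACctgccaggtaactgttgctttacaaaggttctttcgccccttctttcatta

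ADM had no peak of its own, but a strong peak stood close by. The promoter peak of SBF2, which encodes a factor of membrane traffic, lay at -10413 and -10421 bp from the ADM TSS, with 79 tags and rank 603 in replicate 1 and 181 tags and rank 730 in replicate 2. By distance to the nearest TSS it belongs to SBF2, at -453 and -445 bp. Replicate 2 alone had peaks 21523 and 23948 bp downstream of the ADM TSS (81 and 61 tags), and these were assigned to the noncoding gene CAND1.11.

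Ordered by their strongest peak, the genes ran EGLN3, EGLN1, EPAS1, VEGFA, HIF1A and EGLN2 in replicate 1, and EGLN1, EGLN3, EPAS1, VEGFA, HIF1A, EGLN2, ARNT and HIF1AN in replicate 2. The tag counts of neighbours in this order were compared within each replicate by a two-sided exact binomial test, adjusted by Benjamini-Hochberg over all 12 pairs. Only 1 pair passed 0.05: in replicate 2 EGLN1 had 1.43 times the tags of EGLN3 (exact interval 1.16 to 1.76, exact binomial adjusted p = 0.0084). In replicate 1 the same pair stood the other way, with EGLN3 at 1.04 times EGLN1 (0.753 to 1.43, exact binomial adjusted p = 0.87), so the first place is not settled across replicates. The steps from EGLN1 to EPAS1 in replicate 1 (1.61 times, 1.11 to 2.35) and from EGLN3 to EPAS1 in replicate 2 (1.37 times, 1.07 to 1.75) each had an exact binomial adjusted p of 0.051. The other 8 pairs had exact binomial adjusted p-values from 0.13 to 0.83, so their order is not resolved by these counts, and the test covers counting error within a library only. The pairs were formed by sorting on the same counts. Each count is also the highest among a gene's peaks, which numbered from 1 at ARNT to 8 at EGLN3 in replicate 2. The p-values allow for neither. The place of EGLN3 rested on its peak at -130985 bp. With peaks within 100000 bp of the TSS only, a limit chosen after seeing the data, its best peak had 35 tags in replicate 1 and 78 in replicate 2, which put it at position 5 in both, after EPAS1, VEGFA and HIF1A, while EGLN1 was first in both.

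**Figure D2:**
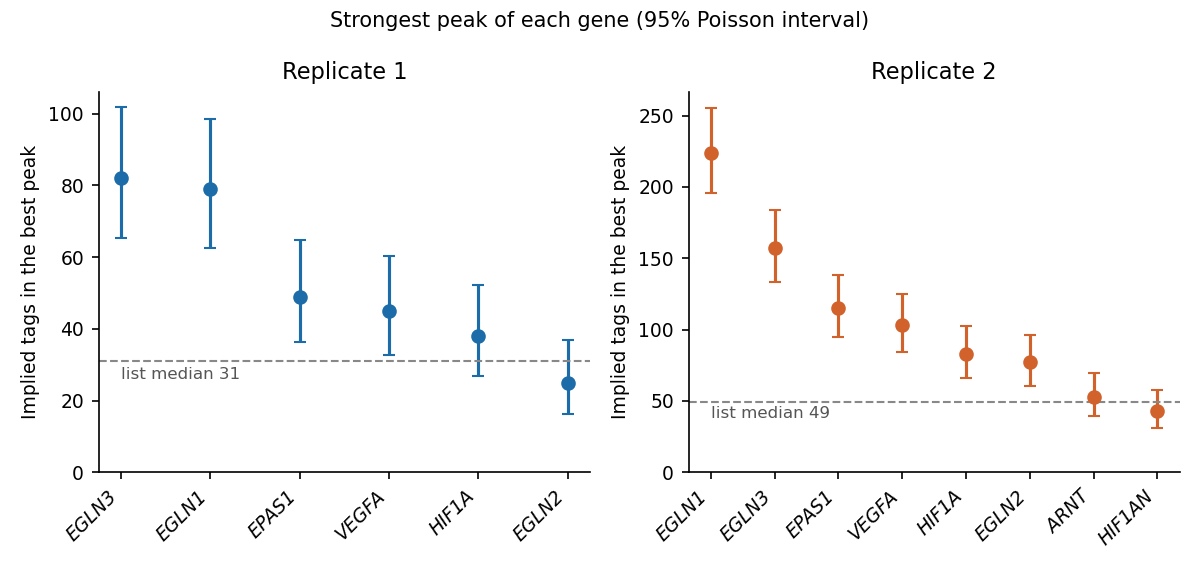
The number of tags implied by the score of the strongest peak of each gene is plotted for replicate 1 (left) and replicate 2 (right), with bars for the 95% exact Poisson interval and a dashed line at the median of the whole list. EGLN1 and EGLN3, the latter by a peak at -130985 bp, were highest in both lists, from 79 to 82 tags in replicate 1 and 157 to 224 in replicate 2, while EGLN2 was at 25 tags, below the median of 31, in replicate 1.

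Across the series, the strongest EGLN1 peak was not extreme. By the mean percentile of the best peak over the replicates, EGLN1 was at position 496 of the 7615 genes of any type with a peak in both lists, with a mean of 96.8 ± 2.34 (SD, n = 2). EGLN3 followed at position 633 (96.0 ± 0.408), EPAS1 at 1921 (86.6 ± 6.47), VEGFA at 2334 (83.0 ± 7.86), HIF1A at 3284 (74.3 ± 10.2) and EGLN2 at 5274 (53.6 ± 34.8). The EPAS1 mean joins different sites, the far upstream peak in replicate 1 and the promoter peak in replicate 2, and for the same site in both lists the means were 85.3 and 83.0. HIF1A stood near the middle of all such genes and EGLN2 below it. These positions take no account of how many peaks each gene had. The genes next to EGLN1 in this order, and so most like it over the 2 replicates by mean percentile, were TRPS1 and MTURN above and TENT5C and ACAD8 below.

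Between the replicates, 13 pairs of peaks of these genes overlapped. They made up 13 of the 17 replicate 1 peaks (76.5%, against 74.9% of all replicate 1 peaks) and 13 of the 26 replicate 2 peaks (50%, against 34.2% of all replicate 2 peaks). Wilson 95% intervals were wide, from 52.7% to 90.4% and from 32.1% to 67.9%. They take peaks as independent, although EPAS1 and EGLN3 hold most of the peaks in each list. In 12 of the 13 pairs the percentile was higher in replicate 2, as in 88.9% of the 9343 overlapping pairs of the whole series. The peaks of replicate 1 without a partner were its weak ones: 1 at EGLN1 and 3 at EPAS1, with 22 to 24 tags.

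**Figure D3:**
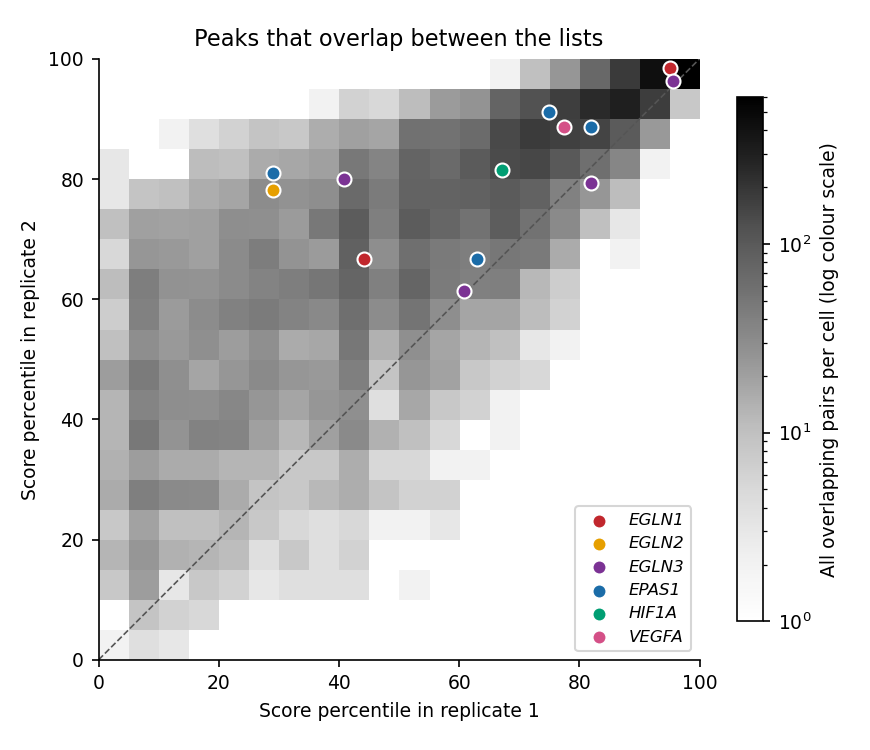
The score percentile in replicate 1 (horizontal) is plotted against that in replicate 2 (vertical) for the 13 overlapping pairs of these genes, coloured by gene, over the density of all 9343 pairs in grey on a log colour scale. Points above the dashed line ranked higher in replicate 2. The strongest EGLN1 and EGLN3 pairs sit in the upper right corner, and the EGLN2 pair and an EPAS1 pair sit at 29.0 in replicate 1 and at 78.2 and 81.0 in replicate 2.

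The forkhead heptamer was looked for on either strand up to 100 bp from the centre of each peak. TGTTTAC lay in 6 of 17 peaks of these genes in replicate 1 (35.3%, Wilson 95% interval 17.3% to 58.7%), against 30.5% of all peaks, and in 10 of 26 in replicate 2 (38.5%, 22.4% to 57.5%), against 28.2%. The intervals took in the background in both lists, but they take peaks as independent, and EPAS1 and EGLN3 hold most of these peaks. None of the promoter-TSS peaks held it, 0 of 3 in replicate 1 and 0 of 6 in replicate 2, where 14.4% and 10.9% of all promoter-TSS peaks did. Outside promoters it was in 6 of 14 and 10 of 20 peaks, against 35.0% and 32.0% of all such peaks. It was in 6 of the 13 overlapping pairs, against 34.3% of all overlapping peaks of replicate 1 and 34.9% of those of replicate 2. Of peaks without a partner it was in 0 of 4 in replicate 1, against 19.4%, and in 4 of 13 in replicate 2, against 24.6%. These subsets are small and were not tested.

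The degenerate forkhead core, a purine and a pyrimidine followed by AAA, a pyrimidine and A on either strand, of which GTAAACA, the heptamer's reverse complement, is a form, lay in 10 of 17 and 16 of 26 peaks, against 57.9% and 56.9% of all peaks. The AP-1 site, TGACTCA or TGAGTCA, was in 3 and 6 peaks (17.6% and 23.1%, against 16.4% and 16.6% of all peaks). The hypoxia response core, ACGTG or GCGTG, was in 5 and 6 peaks (29.4% and 23.1%, against 31.0% and 28.6%). At the promoters it was found at HIF1A and EGLN2, that is in 2 of 3 and 2 of 6 promoter-TSS peaks, where 55.0% and 55.3% of all promoter-TSS peaks held it. A match of letters is not a bound site, and no binding of HIF was measured here.

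By the deposited annotation the peaks of these genes lay mostly away from the TSS, as did most of all peaks. In replicate 1, 13 of 17 were beyond 10000 bp, against 57.1% of all peaks, and in replicate 2, 19 of 26, against 62.1%. Most of these far peaks were of EPAS1 and EGLN3. Promoter-TSS peaks numbered 3 and 6 (17.6% and 23.1%, against 21.7% and 18.0% of all peaks) and intron peaks 5 and 8 (29.4% and 30.8%, against 39.0% and 40.6%). Intergenic peaks numbered 8 and 11 (47.1% and 42.3%, against 34.1% and 36.5%), and a 5′ UTR peak of EGLN1 completed each list, a class of 1.10% and 0.916% of all peaks. The Wilson intervals of the promoter, intron and intergenic shares, and of the share beyond 10000 bp, took in those of all peaks. Beyond 100000 bp lay 6 of 17 and 8 of 26 peaks, all of EPAS1 and EGLN3, against 14.5% and 16.3% of all peaks. These shares of 35.3% (Wilson 95% interval 17.3% to 58.7%) and 30.8% (16.5% to 49.99%) lay above those of all peaks, but such intervals take peaks as independent, and these peaks come from 2 genes.

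The other genes of the pathway were taken from a list of 62 genes, all of which matched RefSeq. Of these, 33 had a peak in both replicates, 4 only in replicate 1, 12 only in replicate 2 and 13 in neither. Of all protein-coding genes, 28.6% had a peak in both, 2.70% only in replicate 1, 23.1% only in replicate 2 and 45.6% in neither. The median over the 33 genes of the mean percentile of the best peaks was 70.2, and over the 5736 protein-coding genes with a peak in both it was 70.0. The share of genes with a peak was thus above the background while the median percentile was near it, and neither difference was tested. The list was chosen with earlier results of these data known, so its share above the background describes the chosen genes only.

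**Figure D4:**
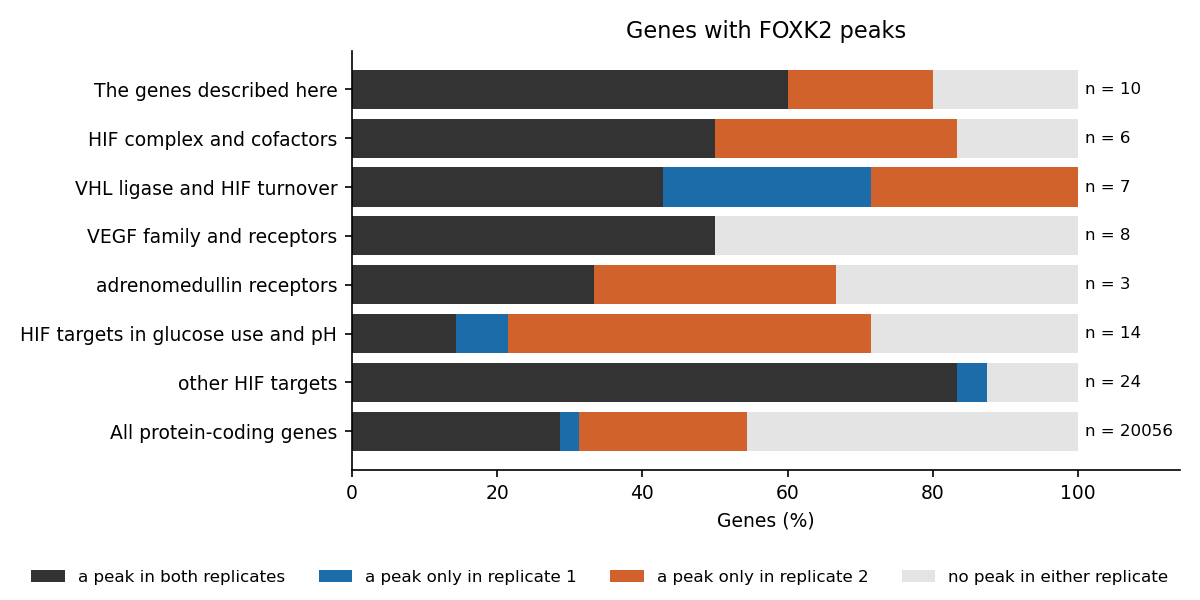
Stacked bars give the percentage of genes with a FOXK2 peak in both replicates (black), only in replicate 1 (blue), only in replicate 2 (orange) or in neither (grey), for the 10 genes, for each group of the pathway list and for all 20056 protein-coding genes, with the number of genes at the right. The share in both replicates ran from 14.3% of targets in glucose use and pH to 83.3% of other HIF targets, beside 28.6% of all protein-coding genes. The genes were chosen with earlier results of these data known.

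The counts in the groups of this list are given beside the 28.6% of all protein-coding genes with a peak in both replicates, and differences between groups were not tested. As the genes were chosen with earlier results known, nothing is read from a group share above that background. Of HIF targets outside glucose use, 20 of 24 had a peak in both replicates, among them NDRG1 and ANKRD37. Of HIF targets in glucose use and pH, 2 of 14 had one, HK2 and PDK1, and 7 had a peak only in replicate 2, where 23.1% of all protein-coding genes did. Of the HIF complex and its cofactors, 3 of 6 had a peak in both lists, of VHL ligase subunits and other factors of HIF turnover 3 of 7, of the VEGF family and its receptors 4 of 8, and of adrenomedullin receptors 1 of 3. In the VEGF group the 4 genes were the receptors and coreceptors FLT1, KDR, NRP1 and NRP2. The ligand genes VEGFB, VEGFC, VEGFD and PGF had no peak in either list, 4 of 8 genes of the group beside 45.6% of all protein-coding genes, and nothing is read from this split.

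The 6 strongest genes of the list by mean percentile were NDRG1, HK2, NRP1, SIAH1, CITED2 and ANKRD37. NDRG1, a gene long used as a hypoxia marker, had its best peak at -44377 and -44332 bp, with 107 tags at rank 270 in replicate 1 and 251 tags at rank 315 in replicate 2, and this peak held a heptamer. It lies on chromosome 8, where scores were raised over the whole chromosome, with median percentiles of 76.3 and 74.9, and among chromosome 8 peaks alone it stood at 95.7 and 97.4. HK2, which encodes a hexokinase that starts glycolysis, had an intron 2 peak with 85 and 146 tags, at the percentiles of 96.0 and 95.4, also with a heptamer.

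NRP1, a coreceptor of VEGF, had 4 and 7 peaks, and its best peaks were not the same site, at 178707 bp from the TSS in replicate 1 (65 tags) and 70455 bp in replicate 2 (127 tags). SIAH1, a ubiquitin ligase that acts on HIF hydroxylases, had an intron 1 peak 752 and 737 bp from the TSS with 73 and 108 tags. CITED2, which competes with the HIF alpha subunits for their coactivators, had its best peak at -33199 and -33187 bp with 58 and 139 tags. ANKRD37, a HIF target, had a promoter peak -16 and 16 bp from the TSS with 53 and 161 tags, at the percentiles of 85.3 and 96.5. Of these 4 genes none had a heptamer in the best peak of either replicate.

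The 13 genes of the list with no peak in either replicate were the coactivator gene EP300, the glucose and pH genes PFKFB4, ALDOC, ENO1 and CA9, the ligand genes VEGFB, VEGFC, VEGFD and PGF, the receptor component RAMP2, and the targets P4HA2, LOX and EPO. CA9 and EPO, which encode carbonic anhydrase IX and erythropoietin, are classical HIF targets. Absence from both lists means that no peak centre was nearest to these genes' TSSs, and not that FOXK2 was absent.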

How the data were processed

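FOXK2 ChIP-seq peak lists of both replicates were used as deposited. Per the paper's methods and the submitters' processing notes, the authors aligned single-end reads to hg38 with Bowtie2 2.2.6 and called peaks with HOMER 4.10, in each replicate separately. The deposited score is HOMER's tag count per peak, scaled to each library, and the deposited focus ratio is a fraction of tags. Tags were recovered here from the score step. Peaks were given to genes by the deposited gene name, and protein-coding genes were matched by Entrez ID to RefSeq (GRCh38.p14). Peaks overlapping by at least 1 bp were counted as shared. Percentiles rank scores within a list, with ties at the better rank. The sequence came from hg38 and gene models from GENCODE release 44. The named genes were all 10 members, the 6 pathway genes with the highest mean percentile, pathway genes without a peak, and the 2 genes to each side of the highest member. SBF2, PDK1 and other genes near or beside these were named after their values were seen. The members and lists were chosen with earlier results of these data known. No set test was run. Overlap, motif and score-step code was tested on simulated data. Alternatives covered the gene assignment rule, peak threshold, overlap, motif window and replicates. The input libraries were not analysed here. Python 3.11.15, pandas 2.3.3, scipy 1.17.1, statsmodels 0.14.6 and pysam 0.24.0 were used.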

Additional observations from a re-analysis of the deposited data

How the results depend on the processing

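The count of 6 genes with a peak in both replicates ran from 4 to 6 when peaks had to lie within 10000 or 100000 bp of the TSS, when only higher-scoring peaks were kept, when replicate 2 was cut to the length of replicate 1 and under the gene body rule (peak centre within 5000 bp of the gene), and fell to 3 with promoter-TSS peaks only. Leaving out a replicate gave 6 to 8, 37 to 45 for the 33 pathway genes and 6277 to 10366 for the 5736 protein-coding genes. With promoter-TSS peaks only, the latter counts were 11 and 1865, and that of protein-coding genes was 3391 within 10000 bp and 3439 with the higher-scoring part of each list. These drops follow from fewer peaks. Under the gene body rule VEGFA lost its peaks, which lie past the gene. With the higher-scoring part of each list, 100% of the 9 replicate 1 peaks left overlapped (all peaks 88.4%) but 45% of the 20 replicate 2 peaks did (all peaks 40.4%), and with lists of equal length 76.5% of replicate 1 and 68.4% of replicate 2 peaks did (all peaks 59.99% and 59.98%). The forkhead core in place of TGTTTAC gave 58.8% and 61.5%, and leaving out a replicate gave a heptamer share of 35.3% to 38.5%. Among higher-scoring peaks the heptamer was in 5 of 9 in replicate 1 (55.6%, all peaks 35.7%) and 10 of 20 in replicate 2 (50%, all peaks 30.3%), and within 500 bp in 41.2% and 46.2% (all peaks 38.4% and 35.7%).

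No paired analysis was possible because each replicate number had a single analysed library. The mean percentile of EGLN3 went from 96.0 to 69.8 within 100000 bp of the TSS and to 93.8 within its own chromosome, and that of EGLN2 from 53.6 to 29.0 without replicate 2 and 78.2 without replicate 1. Ranking within chromosomes and the order of genes within 100000 bp, where 2 pairs passed in place of 1 (EGLN1 over VEGFA in replicate 1, exact binomial adjusted p = 0.017, and EGLN1 over EPAS1 in replicate 2, 4.0e-08, with EGLN3 at position 5 in both), were alternatives chosen after seeing the data. With 2 replicates of a single condition, the spread between replicates is poorly known, and no comparison between conditions could be made.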
